A study of Mus musculus with 3 samples.

Results

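The genes that move water, chloride and sodium across the epithelium of the mouse utero-tubular junction were described: the water channels Aqp1, Aqp3, Aqp4, Aqp5, Aqp8 and Aqp9, the chloride channel gene Cftr, and the epithelial sodium channel (ENaC) subunit genes Scnn1a, Scnn1b and Scnn1g. They were taken by gene name from the array design, which gave 10 genes on 16 probes and 25 spots, among 27670 named genes and 41174 probes. The junction is the narrow passage from uterus to oviduct. Total RNA came from adult CD-1 females (an outbred stock), all in estrus, in 3 groups: no mating, mating with a vasectomized male, and mating with a normal male. The ejaculate of a vasectomized male holds seminal fluid but no sperm. Each group was 1 pool of 10 females on 1 single-colour (Cy3) Agilent array, so the values have no error between animals or arrays, and no test between groups could be made. How long after mating the tissue was taken is not stated in the labels.

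Aquaporins are membrane pores that let water follow an osmotic gradient, and some also pass glycerol. In a fluid-secreting epithelium CFTR, an apical chloride and bicarbonate channel opened by cAMP and protein kinase A, drives secretion, whereas ENaC takes up sodium from the lumen and so drives absorption. ENaC is built from the alpha, beta and gamma subunits encoded by Scnn1a, Scnn1b and Scnn1g, and the balance between CFTR and ENaC sets how much fluid lies in the lumen of the uterus and oviduct.

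The stretches just before the transcription start are shown for Aqp8, which had the lowest ratio of the set after normal mating, for Cftr, and for the neighbouring ENaC genes Scnn1b and Scnn1g. They are the 250 bases before the start in RefSeq (GRCm38.p6), written 5′ to 3′. Capitals mark GGGCGG (the Sp1 box), ACGTG (the core of a HIF site) and AGGTCA (1 arm of an estrogen receptor site), read on both strands.
Aqp8 (chr7:123462044-123462293, plus strand): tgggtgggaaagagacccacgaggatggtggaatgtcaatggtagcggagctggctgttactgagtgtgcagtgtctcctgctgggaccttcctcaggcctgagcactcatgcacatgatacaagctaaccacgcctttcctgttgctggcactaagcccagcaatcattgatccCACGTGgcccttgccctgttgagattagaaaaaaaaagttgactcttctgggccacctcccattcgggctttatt
Cftr (chr6:18170437-18170686, plus strand): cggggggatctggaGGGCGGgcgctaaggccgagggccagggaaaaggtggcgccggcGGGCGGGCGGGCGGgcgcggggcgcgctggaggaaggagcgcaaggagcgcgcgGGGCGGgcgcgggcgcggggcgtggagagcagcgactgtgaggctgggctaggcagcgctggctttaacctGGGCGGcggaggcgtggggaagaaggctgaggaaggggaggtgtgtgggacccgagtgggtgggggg
Scnn1b (chr7:121864788-121865037, plus strand): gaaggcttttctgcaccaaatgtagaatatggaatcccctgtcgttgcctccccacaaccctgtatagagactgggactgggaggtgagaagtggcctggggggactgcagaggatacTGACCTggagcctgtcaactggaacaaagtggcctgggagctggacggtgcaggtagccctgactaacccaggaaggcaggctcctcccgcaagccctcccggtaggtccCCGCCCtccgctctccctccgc
Scnn1g (chr7:121734229-121734478, plus strand): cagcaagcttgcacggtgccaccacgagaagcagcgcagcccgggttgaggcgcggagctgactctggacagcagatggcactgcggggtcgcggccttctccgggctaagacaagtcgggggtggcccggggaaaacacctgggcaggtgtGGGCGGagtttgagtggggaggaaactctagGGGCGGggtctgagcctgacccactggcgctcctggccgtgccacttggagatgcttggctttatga
The Cftr stretch is 76.4% G and C and holds 6 matches to GGGCGG, of which 3 share bases with each other. The Scnn1g stretch is 65.2% G and C with 2 such matches, and that of Scnn1b 60.8% with 1. The Aqp8 stretch is 52.4% G and C, equal to the median of 52.4% over 32841 promoters, with none. Of those promoters, 32.75% hold GGGCGG. The Aqp8 stretch carries CACGTG, which reads as ACGTG on both strands and so counts as 2 overlapping matches, and ACGTG is found in 16.57% of promoters. The Scnn1b stretch carries 1 match to AGGTCA on the reverse strand (14.03% of promoters). AGAACA, 1 arm of a site for steroid receptors such as those for progesterone and mineralocorticoids, is found in 16.09% of promoters, and in none of these 4. TATAAA (the TATA box) was also searched (12.37% of promoters) and was absent from these 4. Promoter entries were matched for 8 of the 10 genes, of which 6 hold the Sp1 box, 3 the HIF core, and 1 each the estrogen receptor arm, the steroid receptor arm and the TATA box. A match is a string of letters and not a bound site.

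Signals are given as multiples of the 75th percentile signal of the same array. That percentile was 874 without mating, 295 after vasectomized mating and 708 after normal mating, whereas the spike-in probes averaged 1388, 2951 and 1548 (geometric means). The vasectomized-mated array therefore had less sample signal for its spike-in signal, and setting the scale by spike-ins moved the median log2 ratio of all genes from 0.18 to -2.54 in vasectomized-mated versus not mated, against -0.05 to -0.53 in normal-mated versus not mated and -0.27 to 1.92 between the matings. Every direction given for the vasectomized-mated pool is relative to the 75th percentile. Probes of the same gene disagreed by over 2-fold in 51.9% of 5822 multi-probe genes for vasectomized-mated versus not mated. The share was 49.99% of 5949 genes in normal-mated versus vasectomized-mated, against 11.9% of 6302 genes in normal-mated versus not mated. Ratios that rest on a single probe have no such check. The median SD of log2 signal between spots of a probe printed 10 times was 0.05 to 0.06 on the 3 arrays, which covers hybridisation and scanning only. In this bulk tissue, fewer cells of a type and less RNA per cell cannot be told apart. Against no mating, 8 of 8 ciliated epithelium markers were past 2-fold higher after normal mating, beside 9.81% of all genes. There 5 of 8 stroma and 4 of 8 smooth muscle markers were past 2-fold lower, beside 13.2%, and 0 higher. After vasectomized mating 6 of 9, 2 of 8 and 2 of 8 of these lists were higher (25.8% of all genes) and 0, 0 and 3 lower (16.5%). The part of tissue make-up in the member ratios was not tested.

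**Figure D1:**
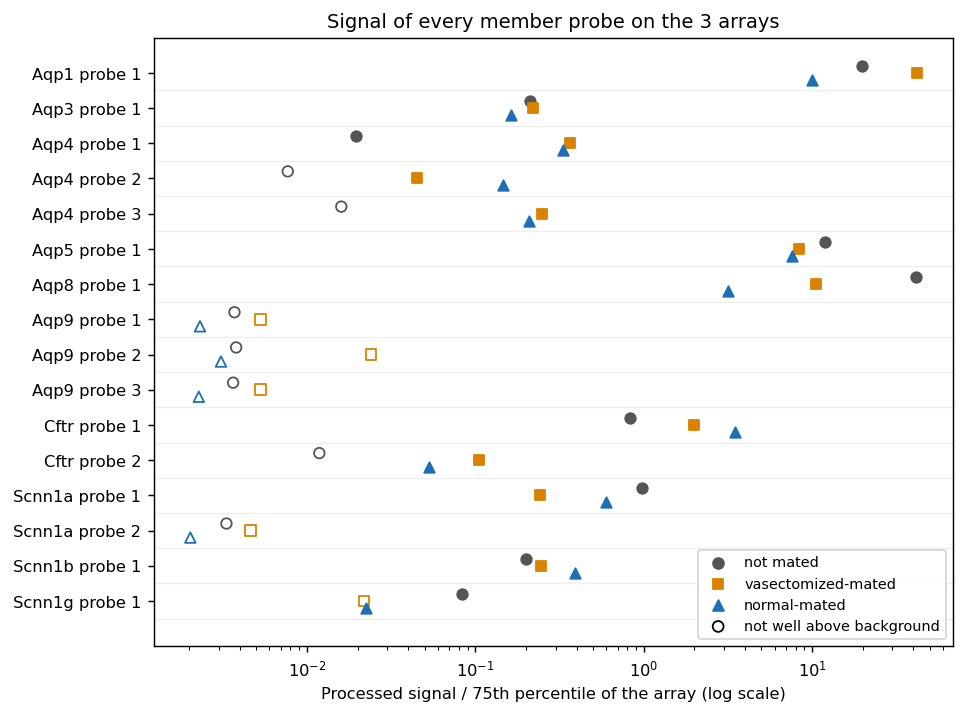
Signal of each of the 16 probes, in multiples of the array's 75th percentile on a log axis, for the not mated (circles), vasectomized-mated (squares) and normal-mated (triangles) pools. Open symbols were not well above background, which held for all 3 Aqp9 probes and the second Scnn1a probe on every array.

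Of the 10 genes, 9 could be compared and Aqp9 could not. In normal-mated versus not mated, Aqp4 and Cftr were past 2-fold higher, Aqp8 and Scnn1g past 2-fold lower, and 5 lay between these limits. Of 19304 genes compared, 9.81% were past 2-fold higher and 13.2% past 2-fold lower (23.0% either way). In vasectomized-mated versus not mated, Aqp1, Aqp4 and Cftr were past 2-fold higher and Aqp8, Scnn1a and Scnn1g past 2-fold lower, beside backgrounds of 25.8% and 16.5% (42.4% either way of 19312 genes). In normal-mated versus vasectomized-mated, Scnn1a was past 2-fold higher and Aqp1 and Aqp8 past 2-fold lower, beside 14.7% and 28.0% (42.7% either way of 18990 genes). The median log2 ratio of the 9 genes was -0.66, 0.06 and -0.14 in these comparisons, against -0.05, 0.18 and -0.27 for all genes compared. Both matings share the not mated pool, so their ratios to it are not independent. After normal mating, normexp correction gave 2 of the genes higher and 1 lower, and median scaling 3 higher and 2 lower; between the matings, normexp gave 0 higher and 2 lower. With spike-in scaling, normal mating had 2 of the genes higher and 5 lower and vasectomized mating 1 higher and 8 lower, while all 7 past 2-fold between the matings were higher after normal mating. With that scaling 5061 of 18978 genes were lower after normal mating, 16429 of 18683 lower after vasectomized mating and 15473 of 19499 higher between the matings, so the counts of the set follow a shift of all genes.

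**Figure D2:**
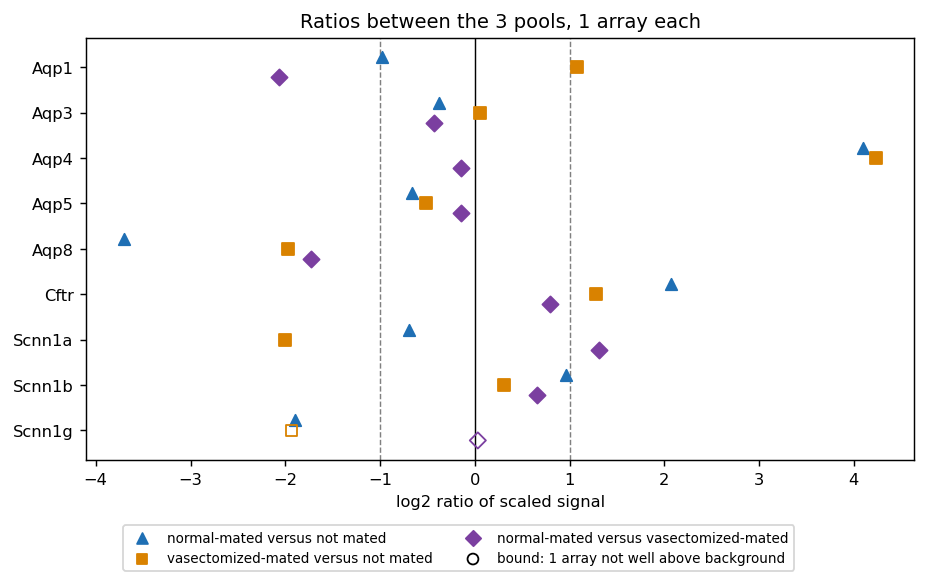
Log2 ratio of each gene in the 3 comparisons, 1 array per group, with dashed lines at 2-fold. In the comparisons with the not mated pool, Aqp4 lies near 4 in both and Aqp8 lies at -3.70 and -1.97, while Aqp1 is the gene whose signs differ most between the matings. Aqp8 lies at -1.73 in normal-mated versus vasectomized-mated.

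Aqp8, a water channel that also passes ammonia and hydrogen peroxide, had the lowest ratio of the set after normal mating; after vasectomized mating that of Scnn1a was as low (-2.00 against -1.97). Its signal was 41.5 times the 75th percentile in females that had not mated, 10.6 times after vasectomized mating and 3.19 times after normal mating. The order was not mated, vasectomized-mated, normal-mated, and each step was over 3-fold. The log2 ratio to the not mated pool was -3.70 after normal mating (13.0-fold lower) and -1.97 after vasectomized mating (3.91-fold lower). It was lower under every setting tried, from -4.16 to -3.50 after normal mating and from -4.62 to -1.88 after vasectomized mating. The step between the matings was -1.73 (3.33-fold lower after normal mating), which became 0.46 with spike-in scaling. The single Aqp8 probe lies at chr7:119570588-119570647 on the mm7 build of the file headers. Its nearest named neighbours on the array were Zkscan2 at 11.8 kb and Lcmt1 at 42.5 kb, which stood at -0.31 and -0.09 after normal mating and at -1.04 and -0.57 after vasectomized mating.

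The 6 uterine gland markers had a summed signal of 142.7 without mating, 32.7 after vasectomized and 18.4 after normal mating, of which the proteases Prss28 and Prss29 made up 55.8 and 82.2 without mating. Most of the sum after vasectomized mating was Wfdc3 (20.0, against 0.824 without and 5.06 after normal mating). Prss29 was at 1.25 after vasectomized and 3.52 after normal mating. Prss28 was not well above background after vasectomized mating and was at 0.0908 after normal mating. After normal mating 3 of the 6 were past 2-fold higher and 3 past 2-fold lower, beside 9.81% and 13.2% of all genes. After vasectomized mating 3 were higher and 2 lower, beside 25.8% and 16.5%. Foxa2 was among the higher ones in both (1.65 after normal and 1.78 after vasectomized mating). The part of these markers in the Aqp8 result was not tested. Aqp11, an aquaporin of intracellular membranes and no member of the set, also stood lower after both matings, at 1.34, 0.340 and 0.296 times the 75th percentile in the same order of groups (log2 ratios of -1.98 and -2.18). Aqp2, the vasopressin-regulated channel of the kidney collecting duct, was at 0.169, 0.0872 and 0.160, within 2-fold in both. Mip, Aqp6, Aqp7 and Aqp12 were not well above background on any array. So 1 of 2 measured aquaporins outside the set was past 2-fold lower, and 0 were higher, in either comparison with the not mated pool. Over all genes, 13.2% were past 2-fold lower after normal mating and 16.5% after vasectomized mating.

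Aqp5, the apical channel of many glands, differed little. Its signal was 11.99 times the 75th percentile without mating, 8.38 times after vasectomized mating and 7.58 times after normal mating. Both mated pools were below the not mated one, by log2 ratios of -0.52 and -0.66, and both ratios stayed within 2-fold under every setting except spike-in scaling, which gave -3.17 and -1.12. The gene sits in a group of aquaporin genes: the Aqp2 probe lies 12.1 kb and the Aqp6 probe 10.2 kb from that of Aqp5 on mm7 chromosome 15. Aqp3, a basolateral channel for water and glycerol, was at 0.211, 0.220 and 0.162 in the order not mated, vasectomized-mated and normal-mated. The 3 values lay within 1.35-fold of each other. Its log2 ratios were 0.06 after vasectomized mating, which spike-in scaling turned to -2.60, and -0.38 after normal mating.

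Aqp1, the water channel of red blood cells and of the endothelium of small vessels, was at 19.7 times the 75th percentile without mating, 41.8 times after vasectomized mating and 10.0 times after normal mating. Besides Aqp3, it was the compared gene whose sign differed between the matings: 1.08 after vasectomized mating (2.11-fold higher) and -0.98 after normal mating (1.97-fold lower). The ratio between the matings was -2.06 (4.17-fold lower after normal mating). The higher value after vasectomized mating was within 2-fold with normexp (0.92), cyclic loess (0.51) and quantile normalization (0.37), and turned to -1.58 with spike-in scaling. After normal mating, quantile (-1.27), cyclic loess (-1.21) and spike-in scaling (-1.44) put it past 2-fold lower.

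Over all genes, 13.2% were past 2-fold lower and 9.81% higher after normal mating, and 16.5% and 25.8% after vasectomized mating. Of 12 endothelial markers, 9 were past 2-fold lower and 0 higher after normal mating (median -1.78). After vasectomized mating 6 of these markers were lower and 1 higher (median -0.74). Their summed signal was 41.4 without mating, 47.4 after vasectomized and 16.6 after normal mating, so in vasectomized-mated versus not mated the sum and the median differ in sign. The higher sum came from Cdh5 (2.31 without and 12.5 after vasectomized mating), whose other probe was at -2.67 where this one was at 2.44, and from Egfl7 (9.56 and 16.3). All 12 were well above background on each array. Pecam1, an adhesion molecule of the vessel wall, was at -2.23 after normal and -2.30 after vasectomized mating, and Robo4, a guidance receptor of endothelium, at -2.02 and -1.04. Red blood cell markers summed to 72.4, 291.6 and 99.6 on these arrays, with 4 of 7 well above background and Epb42 and Rhag among those that were not. After vasectomized mating 1 of the 4 was past 2-fold higher and 3 were within (median 0.05). That one was Hbb-bt, a beta globin, which made up 253.5 of the 291.6 and stood at 2.51, with its probes running from 0.98 to 2.51, while Hba-a1 was at 0.49, Alas2 at -0.69 and Slc4a1 at -0.38. After normal mating 0 of the 4 were past 2-fold (median 0.15). Stroma markers had medians of 0.13 after vasectomized and -1.28 after normal mating, and smooth muscle markers of -0.78 and -1.02. In normal-mated versus vasectomized-mated, 7 of 8 stroma markers (median -1.87) and 3 of 8 smooth muscle markers (median -0.55) were past 2-fold lower. Of the 12 endothelial markers 4 were lower there (median -0.65), beside 28.0% of all genes, and 0 of these 3 lists were higher. The part of any of these cell types in the Aqp1 values was not tested.

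Aqp4, the water channel best known from brain astrocytes, had the highest ratios of the set, from a level near background. Its brightest probe was at 0.0195 times the 75th percentile without mating, 0.368 times after vasectomized mating and 0.333 times after normal mating. Both mated pools stood far above the not mated one and close to each other. The log2 ratio was 4.24 after vasectomized mating (18.8-fold higher) and 4.09 after normal mating (17.1-fold higher). The other 2 probes were not well above background without mating, so they give bounds of at least 2.99-fold and 15.5-fold higher after vasectomized mating and of at least 9.66-fold and 12.9-fold higher after normal mating. All 3 probes were thus past 2-fold higher in both comparisons. With normexp correction, which raises dim values, the ratios of the brightest probe were 2.29 after normal and 2.58 after vasectomized mating, and spike-in scaling gave 3.63 and 1.58. The probes differed on the step between the matings, at -0.14, 1.69 and -0.26. Skeletal muscle, another tissue that carries AQP4, had 8 markers with a summed signal of 3.78 without mating, 2.61 after vasectomized and 2.26 after normal mating, nearly all of it from Acta1 (3.31, 2.12 and 1.83), and Myh4 and Pvalb were not well above background on any array. Of 6 compared, 1 was past 2-fold higher (Myh2 at 1.45) and 1 lower (Tnnt3 at -1.19) after normal mating, beside 23.0% of all genes either way. After vasectomized mating 0 of these 6 markers were past 2-fold either way, beside 42.4% of all genes. Their part in the Aqp4 values was not tested.

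Aqp9, which passes water, glycerol and other small solutes and is found on neutrophils and liver cells, was not well above background on any array with any of its 3 probes. Its highest value was 0.0241 times the 75th percentile, for 1 probe on the vasectomized-mated array, where the lowest signal well above background was 0.0197. No ratio is given for it. Neutrophil markers differed strongly on the same arrays. Of 11 compared, 11 were past 2-fold higher after normal mating (median 2.97), beside 9.81% of all genes. After vasectomized mating 10 were past 2-fold higher (median 2.36), beside 25.8% of all genes. The sum over the list was 96.7, 145.2 and 286.1 in the order not mated, vasectomized-mated and normal-mated, of which Ltf (lactoferrin) was 96.3, 57.9 and 225.1, and Ngp was not well above background on any array. S100a9, a subunit of calprotectin, was at 0.112 times the 75th percentile without mating, 83.2 times after vasectomized mating and 55.7 times after normal mating. The Aqp9 probes thus stayed at background on arrays where S100a9 was far above it.

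Cftr had the best measured values, since its first probe is printed 10 times per array. The spots of that probe lay between 0.737 and 0.906 times the 75th percentile without mating (mean 0.826 ± 0.0471, SD, n = 10 spots). They lay between 1.86 and 2.14 after vasectomized mating (2.00 ± 0.0852) and between 3.39 and 3.55 after normal mating (3.47 ± 0.0593). The spots of the 3 arrays did not overlap, and the order was not mated, vasectomized-mated, normal-mated. Spots of one array share its RNA, so their SD says nothing about animals. The log2 ratio was 2.07 after normal mating (4.21-fold higher) and 1.28 after vasectomized mating (2.42-fold higher), with 0.80 between the matings (1.74-fold). After normal mating it was past 2-fold under every setting (1.61 to 2.27). After vasectomized mating it was past 2-fold higher under all settings except spike-in scaling, which gave -1.38.

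The second Cftr probe gave another order of the matings. It was not well above background without mating (0.0119 times the 75th percentile), at 0.105 times after vasectomized mating and at 0.0533 times after normal mating. The bounds were at least 6.94-fold higher after vasectomized mating and 3.52-fold after normal mating, with a log2 ratio of -0.98 between the matings where the first probe had 0.80. The first probe lies at chr6:18262943-18263002 and the second at chr6:18208199-18208258 on mm7, 54.7 kb nearer the start of the gene. Labelling was primed with oligo-dT, from the 3′ end of the messages. Both probes were higher in both mated pools, and which mating had the higher level was not settled by them. The nearest neighbours of Cftr that could be compared, Cttnbp2 at 44.4 kb and Wnt2 at 333.2 kb, stood at -0.37 and 0.17 after normal mating and at 0.21 and 1.56 after vasectomized mating.

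**Figure D3:**
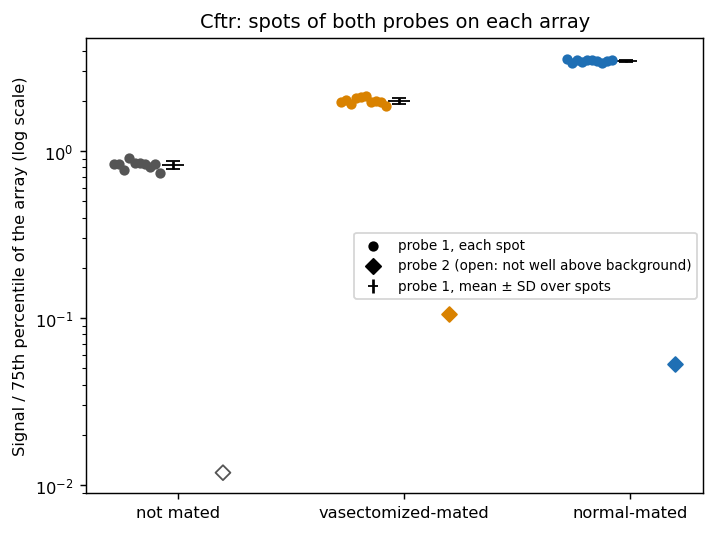
Each spot of the Cftr probe printed 10 times, its mean ± SD over the spots, and the single spot of the second probe (diamonds, open where not well above background), in multiples of the array's 75th percentile on a log axis. The spots of the first probe do not overlap between arrays, and the second probe is highest on the vasectomized-mated array.

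Of the 3 ENaC subunits, Scnn1g was past 2-fold lower after both matings, Scnn1a after vasectomized mating, and Scnn1b after neither. Scnn1a, the alpha subunit that the channel needs to conduct, was at 0.972 times the 75th percentile without mating, 0.242 times after vasectomized mating and 0.600 times after normal mating. The vasectomized-mated pool was the low one: the log2 ratio was -2.00 there (4.01-fold lower) and -0.70 after normal mating, and Scnn1a was 2.47-fold higher after normal than after vasectomized mating (1.31). The last value was 0.80 with normexp correction. The second Scnn1a probe, 1.7 kb away on mm7 chromosome 6, was not well above background on any array. The gene lies between 2 receptors of inflammatory cytokines. The Tnfrsf1a probe, 17.5 kb away, was at 0.01 after normal and -0.28 after vasectomized mating, and the Ltbr probe, 38.2 kb away, at 0.90 and 1.63. Plekhg6, on the side of Tnfrsf1a and nearer than Ltbr, was at -0.09 after normal and -2.04 after vasectomized mating. Its latter value was close to the -2.00 of Scnn1a, while Tuba3a, beyond Ltbr, was at 0.44 and -0.03. A link between Plekhg6 and Scnn1a was not tested.

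Scnn1b, the beta subunit, stayed within 2-fold. It was at 0.199 times the 75th percentile without mating, 0.247 times after vasectomized mating and 0.390 times after normal mating. The log2 ratio of 0.97 after normal mating was just within 2-fold (1.96-fold higher) and just past it with quantile (1.11), cyclic loess (1.17) and median scaling (1.16). After vasectomized mating it was 0.31, and -2.35 with spike-in scaling. Scnn1g, the gamma subunit, was at 0.0836 times the 75th percentile without mating and at 0.0224 times after normal mating. On the vasectomized-mated array it was not well above background, at a measured 0.0219. The log2 ratio after normal mating was -1.90 (3.73-fold lower), and after vasectomized mating the bound was at least 3.82-fold lower. With normexp correction, the Scnn1g ratio after normal mating was -0.54, within 2-fold, and after vasectomized mating Scnn1g had no ratio. The probes of Scnn1b and Scnn1g lie 152.0 kb apart on mm7 chromosome 7. 

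Genes that activate or remove ENaC, and the lists after them, are to be read against the shares over all genes: 9.81% higher and 13.2% lower after normal mating, and 25.8% and 16.5% after vasectomized mating. Of 24 compared after normal mating, 1 was past 2-fold higher, 3 past 2-fold lower and 20 between (median -0.23). After vasectomized mating, 1 of 22 was higher, 10 lower and 11 within (median -0.74). Among these 10, probes ran from -1.93 to 0.17 for Nedd4l, from -2.31 to 0.21 for Wnk1 and from -1.83 to -0.52 for Sgk3. All probes of Tmprss2, Usp2 and Pik3ca were past 2-fold lower. Hsd11b2, the enzyme that inactivates glucocorticoids and so leaves the mineralocorticoid receptor to aldosterone, was at 0.403 times the 75th percentile without mating and 0.0161 times after normal mating (-4.65), and was at least 20.4-fold lower after vasectomized mating. Tsc22d3, a glucocorticoid-induced protein known to stimulate ENaC, was at -2.26 after normal and 0.35 after vasectomized mating, though its 3 probes ran from -2.31 to 0.35 in the latter. Tmprss4, a membrane protease that can activate ENaC, was at 1.07 and 0.58, and Serpine2, a protease inhibitor, at -1.12 and -1.52. Nr3c2 (the mineralocorticoid receptor), Prss8 and Sgk1 were chosen after their values were seen. Nr3c2 was well above background on the normal-mated array alone, at 0.0235 times the 75th percentile. Prss8 (prostasin, which cleaves the gamma subunit) was at -0.27 and -2.16, and the kinase Sgk1, which keeps ENaC at the membrane, at -0.91 and 0.69.

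Partners of CFTR and the cAMP arm stood near the middle of all genes. Of 18 compared after normal mating, 3 were past 2-fold higher, 1 lower and 14 within (median 0.13). After vasectomized mating 4 were higher, 1 lower and 13 within (median -0.07). Prkar2b, a regulatory subunit of protein kinase A, was at 2.02 after normal and 1.87 after vasectomized mating. Adora2b, an adenosine receptor that raises cAMP, was at 1.45 and 1.32. Slc9a3r1, the scaffold NHERF1 that holds CFTR at the apical membrane, was at 1.24 after normal and -0.90 after vasectomized mating, so its signs differed. Adcy4, an adenylyl cyclase, was at -1.52 and -0.58.

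Among the other chloride and bicarbonate routes, 3 of 15 genes lay past 2-fold higher and 0 lower after normal mating (median -0.05), and 5 were higher and 2 lower after vasectomized mating (median 0.47). The anion exchanger Slc26a4 (pendrin) was at 2.61 times the 75th percentile without mating, 52.7 times after vasectomized mating and 71.3 times after normal mating. Slc26a9, an anion channel and exchanger that works beside CFTR in airways, was at 0.207, 0.731 and 3.71 in the same order. Clca1, a secreted regulator of calcium-activated chloride channels, was at 65.0, 386.7 and 230.1, and Best1, a calcium-activated chloride channel, was within 2-fold at 0.63 and 0.70. Slc12a2, which loads chloride into the cell from the blood side, was chosen after its values were seen: at 2.98, 3.01 and 2.76, it differed by at most 1.09-fold at this scaling.

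The sodium pump and the basolateral potassium channels had 2 of 17 genes past 2-fold higher and 2 lower after normal mating (median -0.49), and 3 of 15 higher and 3 lower after vasectomized mating (median -0.36). Kcne2, a potassium channel subunit, was at -5.81 after normal and -3.44 after vasectomized mating. Kcnn4, the calcium-activated potassium channel that sustains chloride secretion, was at 1.03 and -1.84, with signs that differed. Atp1b2, a beta subunit of the pump, was at -0.91 after normal mating and -0.36 after vasectomized mating.

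Epithelial markers differed between the pools too. Of 12, 6 lay past 2-fold higher and 0 lower after normal mating (median 0.86), and 1 was higher and 3 lower after vasectomized mating (median -0.43). Their summed signal was 504.5 without mating, 349.8 after vasectomized and 839.5 after normal mating, and all 12 were well above background on each. Elf3 and Cldn4 led at 2.44 and 2.28 after normal mating, with Epcam at 1.66 and Cldn7 at 1.29. Normal-mated versus vasectomized-mated had 10 of 12 past 2-fold higher (median 1.52), beside 14.7% of all genes compared. Scnn1a (1.31), Scnn1b (0.66) and the first Cftr probe (0.80) were also higher there, while the second Cftr probe was lower (-0.98). Aqp1 (-2.06), Aqp8 (-1.73) and Aqp3 (-0.43) were lower. Aqp4 and Aqp5 (both -0.14) differed too little to give a direction. The sign of Aqp5 changed under 4 of 8 other settings, and another Aqp4 probe was at 1.69. Ciliated epithelium markers had a median of 1.89 after normal mating, 1.17 after vasectomized mating and 0.46 between the matings. The part of either list in the values of Cftr and the ENaC subunits was not tested.

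**Figure D4:**
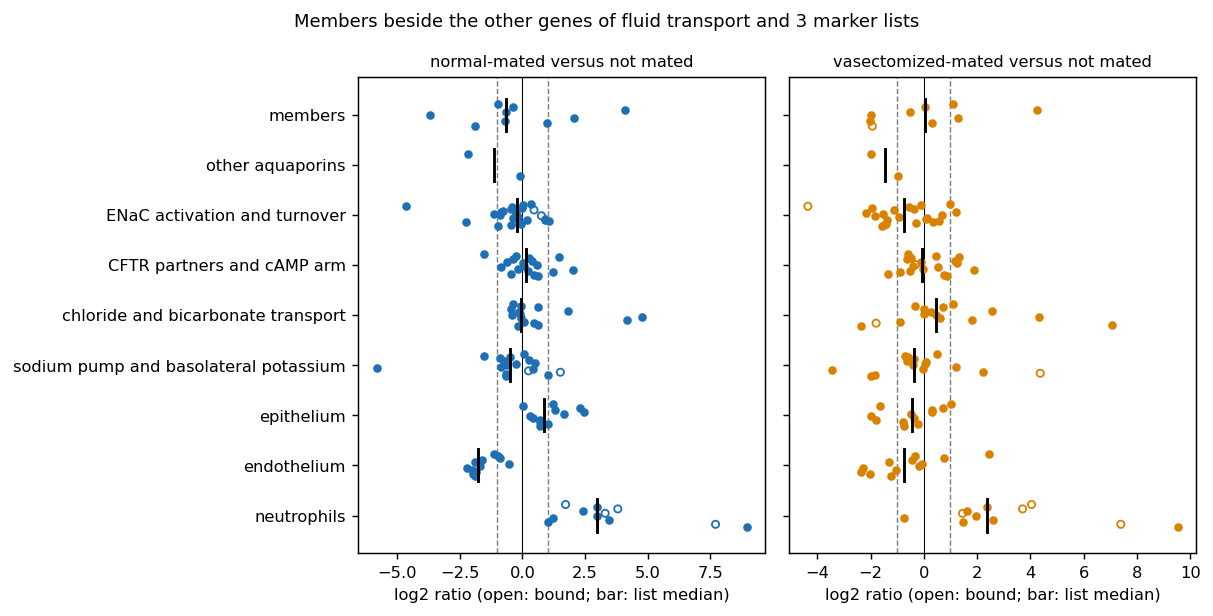
Log2 ratio of each compared gene of the set, of the 5 lists of fluid transport genes and of 3 marker lists, for both matings against no mating; open points are bounds, bars are list medians and dashed lines mark 2-fold. The set spreads from -3.70 to 4.09 after normal mating, with a median of -0.66, while the neutrophil list lies to the right of 2-fold.

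Over the 3 arrays, the genes with ratios nearest to those of Aqp8, among 17214 others well above background on all arrays, were C530007A02Rik, Kcnd2 (a voltage-gated potassium channel) and Pga5 (a pepsinogen), at distances of 0.09, 0.30 and 0.31 on the log2 scale. Within this search, 10 genes lay within 0.5 of Aqp8 and 3 within 0.5 of Aqp4, Rnf186 and Slc2a6 among them, while 124 lay that near to Cftr (first Opn3, Cyba and Mfsd2a), 403 to Scnn1a (first Phip, Bbs2 and NAP027049-1) and 495 to Aqp1 (first AK085706, Rai2 and D130084N16Rik). The likeness rests on a pair of ratios with a shared control and is a description.

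**Figure D5:**
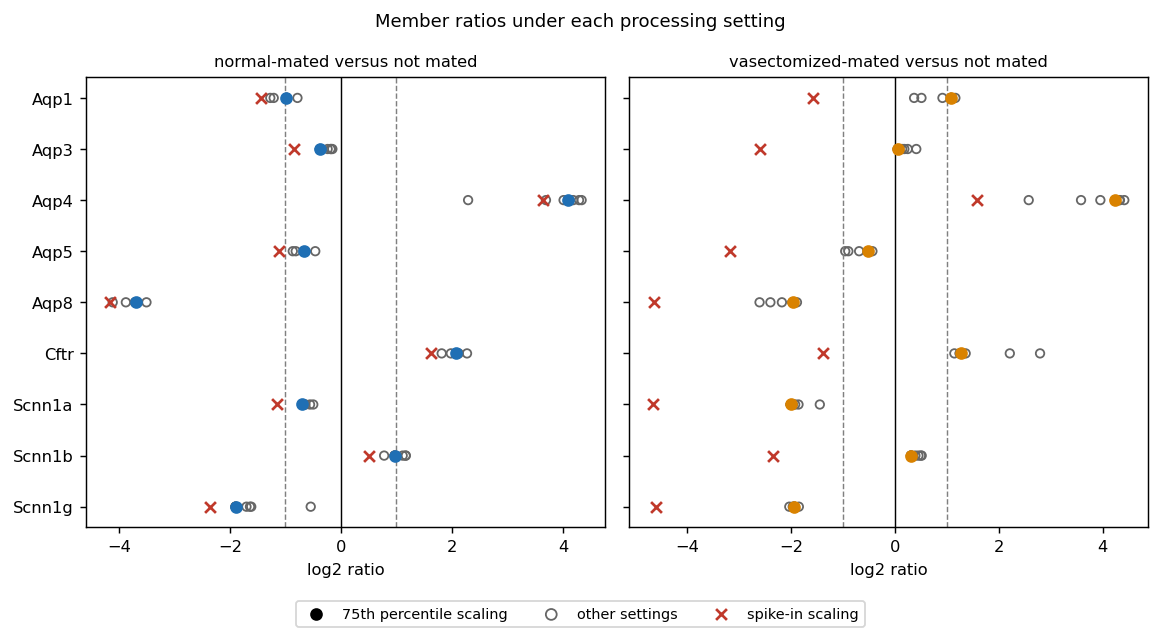
Log2 ratio of the 9 compared genes against no mating under the 75th percentile scaling (filled), the other settings tried (open) and spike-in scaling (crosses). Spike-in scaling moves all genes to lower values, most on the vasectomized-mated array, where Aqp1, Aqp3, Cftr and Scnn1b change sign while Aqp4 stays above 0 and Aqp8, Aqp5, Scnn1a and Scnn1g below.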

How the data were processed

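RNA of the utero-tubular junction from 3 pools of 10 CD-1 females was hybridised to 1 Cy3 array each. The deposited intensity values are processed signals of Agilent Feature Extraction, background-subtracted and detrended for each array, per the file headers. Version 10.5.1.1 stands in the headers and 9.5.3 in the submitters' processing notes. All arrays share 1 slide scan, and 0 spots other than controls were saturated. The deposited 0 or 1 flags marked outlier spots, which were left out, and spots well above background.

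The log2 of each intensity minus the 75th percentile over non-control probes was computed here, and spots of a probe were averaged (R 4.3.3, limma 3.58.1, data.table, version 1.17.8, Python 3.11.15, numpy 2.4.6, pandas 2.3.3, matplotlib 3.10.9). A gene takes its brightest probe, preferring probes that exceeded background somewhere. Where 1 array was not well above background, the ratio is a bound: the bright value against the higher of the dim value and the lowest signal well above background on that array. Bounds under 1-fold were dropped. Genes count as different at 2-fold.

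Probes were named through the RefSeq table of GRCm38.p6: 22935 matched an accession, 6675 a symbol, 3109 a synonym, and 8455 are under the files' own names. Probe coordinates are those of the files, on mm7. Position within exons was not analysed here. The alternatives were normexp correction (offset 50), quantile, cyclic loess, median and spike-in scaling, stricter and no filters on dim probes, and other probe rules.

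Named genes are every member, up to 4 genes per list with the largest absolute ratio after normal mating among those measured on both arrays, and the 3 genes nearest in ratios to members past 2-fold. Named outside this rule are neighbours on the chromosome, genes not well above background, and genes of the ENaC list given for their probes. Foxa2, Cdh5, Egfl7, Ltf, Nr3c2, Prss8, Sgk1 and Slc12a2 are also outside it. Lists covered other aquaporins, ENaC activation and turnover, CFTR partners, chloride and bicarbonate transport, the sodium pump, and markers of cell types. Some named genes are not reported here. The members and lists were chosen with earlier results of these data known. Counting steps were tested on simulated data. Precision is limited by having 1 array per group.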

Additional observations from a re-analysis of the deposited data

Results flagged for a closer look

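Both genes whose sign differed between the matings are given here, against the shared not mated pool. Aqp1 had a log2 ratio of 1.08 after vasectomized mating and -0.98 after normal mating. Aqp3 had 0.06 and -0.38. The difference was not tested, since each group is 1 array.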

How the results depend on the processing

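With 1 array per group no p-value, SE or leave-one-out value exists. No paired analysis was possible because each group holds 1 pool and the labels pair none. Of the member ratios under alternatives, 186 kept their direction and their side of 2-fold, 12 moved past 2-fold and 5 inside it, 11 changed sign from within 2-fold and 4 reversed. Both filters on dim probes repeated the main value of each member they covered. The mean over probes did so for members with a single usable probe. The 186 include these repeats, so that count does not measure stability. The 4 reversals came with spike-in scaling: Aqp1 at -1.58 in vasectomized-mated versus not mated and 0.13 between the matings, Aqp8 at 0.46 between the matings and Cftr at -1.38 in vasectomized-mated versus not mated. By construction this scaling shifts every gene of a comparison alike, down in vasectomized-mated versus not mated and up in normal-mated versus vasectomized-mated.

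Spike-in scaling put 7 members past 2-fold in normal-mated versus not mated against 4, and 7 against 3 between the matings. Among all genes it gave 16655 in vasectomized-mated versus not mated against 8182 and 15717 between the matings against 8102, and 18.1% of calls in normal-mated versus not mated were higher against 42.7% (52.9% with cyclic loess, 56.7% with median scaling, 59.5% with normexp). In vasectomized-mated versus not mated that share was 61.0%, against 77.0% with normexp and 1.36% with spike-ins, and between the matings 34.5%, against 98.5% with spike-ins and 22.8% with no filter on dim probes. Normexp gave 2303 genes in normal-mated versus not mated against 4441. No filter on dim probes gave 14397 of 27645 genes between the matings, against 8102 of 18990. The second brightest probe, which only genes with several probes have, left 2 of 2 members past 2-fold in either comparison with the not mated pool and 0 of 2 between the matings. Over all genes it gave 1319 of 6707, 2937 of 6641 and 2966 of 6538 in these comparisons. Signals near background limit the ratios of Aqp4, Scnn1g and the second Cftr probe.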
